A study of Homo sapiens with 26 samples.

Results

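The 10 genes described here are members of the BCL2 family and 1 death receptor gene, chosen by name, with earlier results of these data known: the rows Bcl2, Bcl2l1, Mcl1, Bcl2l11, Bbc3, Pmaip1, Bax, Bak1, Bid and Tnfrsf10b among the 55353 gene rows of the input files. All 10 names were present. The cells were SK-MEL-28, an established human melanoma line, kept in salubrinal for 72 h or left untreated as the control. Input RNA was sequenced once per treatment, and gradient RNA was sequenced as 40S, 60S, 80S and polysome fractions with 3 replicates per treatment and fraction, after the arrest of ribosomes with cycloheximide at 100 µg/mL for 12 min. Every sample came from the same single line, and no allele or other agent separates the groups in the labels, whose cell-line field gives a different numbered name to each sample while every title gives SK-MEL-28.

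The BCL2 family decides whether the outer mitochondrial membrane is opened during apoptosis. BAX and BAK form the pore, BCL2, BCL-XL and MCL1 hold them in check, and the BH3-only proteins BIM, PUMA, NOXA and BID release or activate them. Death receptors such as DR5, encoded by TNFRSF10B, start apoptosis from the cell surface through caspase-8, which cuts BID. Salubrinal keeps the initiation factor eIF2α phosphorylated, which switches on the integrated stress response. In that response ATF4 and its partner CHOP, encoded by DDIT3, are known to raise transcription of BIM, PUMA, NOXA and DR5 in several human and mouse cell types, and MCL1 protein is short-lived.

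No member with enough reads differed 2-fold between the input libraries when these were scaled by trimmed means, and 2 did, Mcl1 and Bcl2l1, when scaled by total counts, under which 4830 rows were past 2-fold upward and 30 downward, with the median over these rows higher by 0.93. A row counted as measured when it held at least 50 counts over both libraries, and 6 of the 10 members did. Of these 6, 0 were past 2-fold upward with salubrinal and 0 downward, where 2.75% of all 10614 measured rows were upward and 3.80% downward. Their median log2 ratio, salubrinal over control, was -0.12, against 0.02 for all measured rows. With 1 library per treatment there was no replicate check and no test; the 95% intervals below are exact binomial and describe counting error alone. Fewer cells of a type and less RNA per cell cannot be told apart in bulk RNA.

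The input libraries held 10245548 gene-row counts with salubrinal and 12068784 without, from which CPM (counts scaled to library size, here with trimmed-mean factors, TMM) were computed. Row names in these files are mouse-style symbols although the cells are human and the submitters' processing notes name the human build hg19, and which annotation gave the rows is not stated. A row with few counts therefore need not mean low expression: Gapdh and Ppia, which nearly all cells express strongly and which were picked here after their values were seen, held 386 and 17 counts with salubrinal and 222 and 12 without, while Actb, another such gene, held 10294 and 11870. Of 8 melanocytic markers 6 were measured, led by Pmel with 953 CPM with salubrinal and 1928 CPM in the control, while Mlana was at 0 in both. Markers of fibroblasts, keratinocytes, endothelium and immune cells summed to between 0 and 3.03 CPM per list with salubrinal and between 0.115 and 5.17 CPM in the control.

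Mcl1, whose protein blocks BAK and BAX, was the member with the most reads and, under trimmed-mean scaling, the only measured one whose interval left out 0. It had 437 counts (30.8 CPM) with salubrinal and 194 counts (22.3 CPM) in the control, a log2 ratio of 0.46 (0.22 to 0.72). Its ratio exceeded that of 84.1% of measured rows, so it lay in the upper part of the common range and short of 2-fold. Bcl2l1, which encodes BCL-XL, had 324 counts (22.8 CPM) with salubrinal and 179 counts (20.6 CPM) in the control, a log2 ratio of 0.15 (-0.12 to 0.42). Bcl2, the founding member of the family, had 48 counts (3.38 CPM) with salubrinal and 37 counts (4.25 CPM) in the control, a log2 ratio of -0.31 (-0.98 to 0.33). Under this scaling the intervals of Bcl2l1 and Bcl2 include 0. Summed, the 3 anti-apoptotic rows stood at 56.99 CPM with salubrinal and 47.1 CPM in the control, a log2 ratio of 0.28 (0.10 to 0.45). Mcl1 gave 437 of the 809 summed counts with salubrinal and 194 of the 410 in the control. The sum is therefore not separate from the Mcl1 result.

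**Figure D1:**
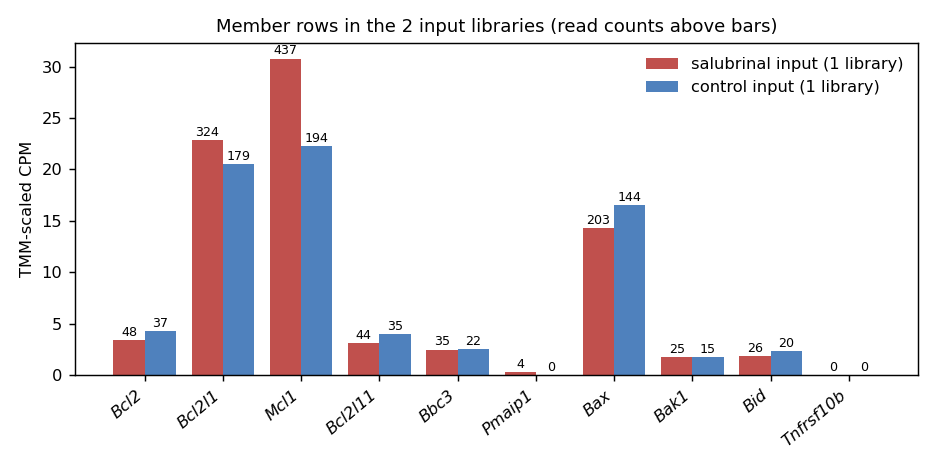
TMM-scaled CPM (vertical axis) of the 10 member rows in the salubrinal input (left bar) and the control input (right bar), 1 library each, with read counts above the bars. Mcl1, at 30.8 CPM with salubrinal and 22.3 CPM in the control, shows the widest gap, and Tnfrsf10b is at 0 in both; bars of different rows are not set per length.

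Of the pore formers, Bax had 203 counts (14.3 CPM) with salubrinal and 144 counts (16.5 CPM) in the control, a log2 ratio of -0.21 (-0.52 to 0.11). Bak1 had 25 counts with salubrinal and 15 in the control, under the minimum, with a log2 ratio of 0.03 (-0.95 to 1.06). Under trimmed-mean scaling neither interval leaves out 0, and that of Bak1 reaches past 2-fold.

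Ratios taken inside a library do not depend on how the 2 libraries are scaled. Mcl1 held 2.15 counts per Bax count with salubrinal and 1.35 in the control, and the log2 of the first over the second was 0.68 (0.27 to 1.08). The same value was 0.36 (-0.06 to 0.78) for Bcl2l1 over Bax and -0.12 (-0.85 to 0.62) for Bcl2 over Bax. Among the anti-apoptotic rows it was 0.32 (-0.06 to 0.69) for Mcl1 over Bcl2l1 and 0.80 (0.09 to 1.495) for Mcl1 over Bcl2. The 3 anti-apoptotic rows summed to 809 counts with salubrinal and 410 in the control, of which Mcl1 gave 437 and 194. The 6 pro-apoptotic BCL2 family rows summed to 337 and 236. The log2 of the ratio of ratios for these sums was 0.47 (0.16 to 0.77). That value is not separate from the Mcl1 result, and the sums were not compared without Mcl1. The count of Mcl1 relative to Bax and to Bcl2 therefore differed between the 2 libraries beyond counting error, with no measure of the spread between cultures. These intervals were not adjusted for the number of ratios taken, and Mcl1 already had the highest ratio of the measured members in the same 2 libraries.

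The BH3-only rows, of which stress factors are known to induce Bcl2l11, Bbc3 and Pmaip1, were low in both libraries. Bcl2l11, which encodes BIM, had 44 counts (3.10 CPM) with salubrinal and 35 counts (4.02 CPM) in the control, a log2 ratio of -0.36 (-1.05 to 0.31). Bbc3, which encodes PUMA, had 35 counts (2.46 CPM) with salubrinal and 22 counts (2.53 CPM) in the control, a log2 ratio of -0.03 (-0.84 to 0.80). Under this scaling the interval of Bbc3 ends short of 2-fold in both directions and that of Bcl2l11 short of a 2-fold higher level with salubrinal; with total counts the upper ends are 1.75 and 1.25, past 2-fold. Bid, the substrate of caspase-8, had 26 counts with salubrinal and 20 in the control, under the minimum, with a log2 ratio of -0.30 (-1.22 to 0.59). Pmaip1, which encodes NOXA, had 4 counts with salubrinal and 0 in the control; a count of 0 allows up to 3 counts there, so no fold is given. Summed, the 4 BH3-only rows stood at 7.68 CPM with salubrinal and 8.84 CPM in the control, a log2 ratio of -0.20 (-0.64 to 0.24).

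Tnfrsf10b, the row of the TRAIL receptor DR5 and a known CHOP target in human cells, had 0 counts in both libraries, which allows up to 0.211 CPM with salubrinal and 0.344 CPM in the control. It is the only member at 0 in both, and no ratio can be given. Because Ppia, a widely expressed gene, also held few counts in these files, although Actb did not, the level of this receptor in the cells cannot be told from the row.

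Most rows of the ATF4 and CHOP branch stood past 2-fold in the same 2 libraries. Ddit3 had 418 counts (29.4 CPM) with salubrinal and 57 counts (6.54 CPM) in the control, a log2 ratio of 2.14 (1.77 to 2.60), and Atf4 had a log2 ratio of 1.82 (1.73 to 1.91). Chac1, a glutathione-degrading enzyme induced by ATF4, and Trib3, a pseudokinase induced by CHOP, stood at 2.49 and 2.26. Cebpb, a C/EBP transcription factor, stood at 1.25 (0.94 to 1.59), an interval that reaches below 2-fold, and Atf5 at -1.66 (-2.57 to -1.01). In all, 5 of the 6 measured rows of the branch were past 2-fold upward and 1 downward. The shares over all measured rows were 2.75% and 3.80%. The intervals of Bax, Bbc3, Bcl2, Bcl2l1, Bcl2l11 and Mcl1 all end below those of Ddit3, Atf4, Chac1 and Trib3.

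**Figure D2:**
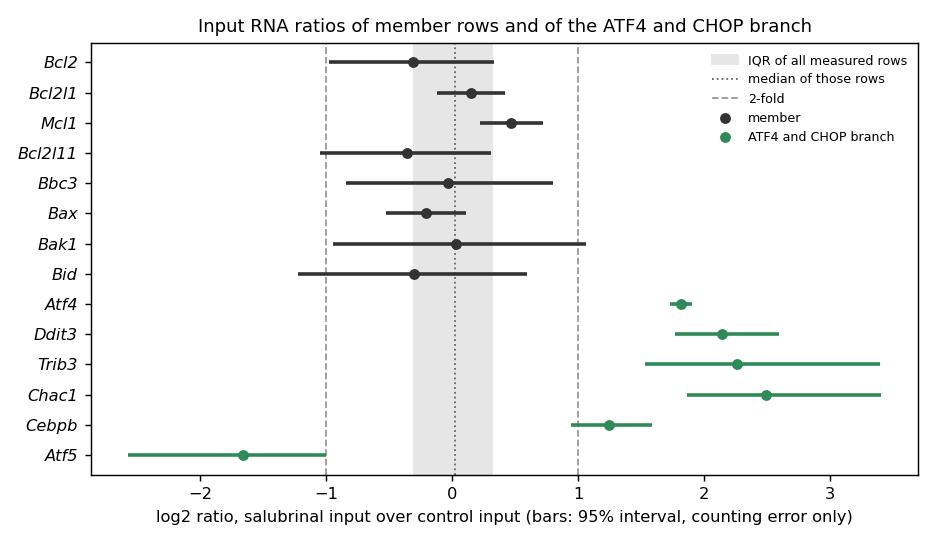
Log2 ratio of salubrinal input over control input (horizontal axis) for the 8 member rows with counts in both libraries and the 6 measured rows of the ATF4 and CHOP branch, with 95% intervals for counting error; the grey band is the interquartile range of all measured rows (-0.30 to 0.32), the dotted line their median and the dashed lines 2-fold. Member points lie between -0.36 and 0.46, and 5 branch points lie at 1.25 or above.

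Promoter sequences are shown for 3 BH3-only members known as stress-induced genes, so that the letters before their starts can be seen beside these ratios. For each of the 3 genes 1 window is shown, the first listed, and a gene can have more. The table of promoter windows (GRCh38.p14) matched 8 of the 10 members, with 13 windows. MCL1 and TNFRSF10B had no window in it, although the RefSeq gene table lists both genes. The 250 bases before each start were searched on both strands. The ATF4-C/EBP composite element TGATGNAA was in 0 of the 13 member windows and in 3.14% of all 35116 windows. The core TGCAAT, which can overlap the composite element, was in 0 and 7.03%. TGACGT, the core of the cyclic AMP response element (CRE) bound by ATF proteins, was in 1 member window and 7.10% of all windows, and CCAAT was in 4 and 32% of all windows. The windows run 5′ to 3′ on the gene's strand; capitals mark the CRE core in PMAIP1, 56 bases before the start, and CCAAT, read on the other strand as ATTGG, in BBC3 and BCL2L11, 87 and 58 bases before it.
PMAIP1 (chr18:59899746-59899995, plus strand): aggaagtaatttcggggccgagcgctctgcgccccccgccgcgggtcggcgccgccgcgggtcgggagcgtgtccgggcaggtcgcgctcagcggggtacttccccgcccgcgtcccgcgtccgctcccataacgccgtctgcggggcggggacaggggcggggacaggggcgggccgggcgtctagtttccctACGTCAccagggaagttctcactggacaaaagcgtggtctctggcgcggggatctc
BBC3 (chr19:47232668-47232917, minus strand): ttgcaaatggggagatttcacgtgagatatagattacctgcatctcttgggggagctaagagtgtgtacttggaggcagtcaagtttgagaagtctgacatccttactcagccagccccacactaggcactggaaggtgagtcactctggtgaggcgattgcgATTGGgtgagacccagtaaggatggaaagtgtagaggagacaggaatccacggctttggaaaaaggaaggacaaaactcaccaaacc
BCL2L11 (chr2:111120664-111120913, plus strand): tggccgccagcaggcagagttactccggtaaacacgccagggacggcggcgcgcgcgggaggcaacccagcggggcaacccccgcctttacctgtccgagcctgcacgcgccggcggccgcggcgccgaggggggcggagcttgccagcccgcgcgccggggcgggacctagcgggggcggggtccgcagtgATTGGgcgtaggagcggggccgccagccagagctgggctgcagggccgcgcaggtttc
A match is a stretch of letters and not a bound site, and its absence says only that these letters are not in this window.

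Other genes of the apoptosis pathways were read from 10 further lists with 79 rows, of which 39 were measured. With total counts 19 of the 39 rows were past 2-fold upward and 0 downward. Of all 10614 measured rows 4830 were then upward and 30 downward. With trimmed means 1 of the 33 measured rows outside the ATF4 and CHOP branch was upward and 1 downward, with a median log2 ratio of 0.00. The shares over all measured rows were 2.75% and 3.80%. The downward call was not made with total counts. Both rows were inhibitors of apoptosis proteins: Birc2, which encodes the ubiquitin ligase cIAP1, had 320 counts (22.5 CPM) with salubrinal and 97 counts (11.1 CPM) in the control, a log2 ratio of 1.01 (0.69 to 1.36). Birc7, known as melanoma IAP, had 41 counts (2.89 CPM) with salubrinal and 52 counts (5.97 CPM) in the control, a log2 ratio of -1.01 (-1.68 to -0.43). Both intervals reach below 2-fold. Xiap, the direct caspase inhibitor, stood at 0.40, and Birc5, which encodes survivin, at -0.29.

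Among other BCL2 proteins, Bcl2l2, which encodes the anti-apoptotic BCL-W, had 143 counts (10.1 CPM) with salubrinal and 56 counts (6.43 CPM) in the control, a log2 ratio of 0.63 (0.19 to 1.12). Bcl2l13 stood at 0.32 (0.10 to 0.55), and the mitophagy receptors Bnip3l and Bnip3 at -0.19 and -0.59 (-0.99 to -0.21 for Bnip3). Bad, Bmf, Hrk, Bok and Bik, which encode further pro-apoptotic members, held 0 to 16 counts per library and were not measured.

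On the death receptor side, Tnfrsf21, which encodes DR6, had a log2 ratio of 0.79 (0.43 to 1.18), and Tnfrsf1a, the TNF receptor, one of 0.58 (-0.16 to 1.44). The other 8 receptor and ligand rows were not measured, and 7 of them, Fas and Tnfsf10 (TRAIL) included, were at 0 in both libraries. In the signalling complex Traf2, an adaptor of TNF receptors, stood at -0.88 (-1.45 to -0.38), the deubiquitinase gene Cyld at 0.10 and the kinase gene Ripk1 at -0.10. Casp8 itself had 27 counts with salubrinal and 21 in the control, under the minimum.

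Downstream of the pore, Apaf1, the scaffold of the apoptosome, stood at 0.00 (-0.32 to 0.32). Vdac2, a channel of the outer membrane that binds BAK, was highest of its list at 0.34 (0.24 to 0.43), and the nuclease gene Endog and Aifm1 were lowest at -0.65 and -0.49. The caspase row Casp2 stood at -0.62 (-1.05 to -0.21). Rows that act on MCL1 protein turnover ranged from -0.54 for Cdc20, an activator of the mitotic ubiquitin ligase, to 0.26 for Fbxw7, with the ligase subunit Btrc at 0.16, the MCL1 ubiquitin ligase Huwe1 at -0.11 and its deubiquitinase Usp9x at 0.00. Trp53, which encodes p53, had 48 counts with salubrinal and 15 in the control, a log2 ratio of 0.91 (0.11 to 1.92), while Foxo1 stood at 0.31, Mdm4 at -0.03 and Foxo3, a known activator of Bcl2l11, at -0.04.

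**Figure D3:**
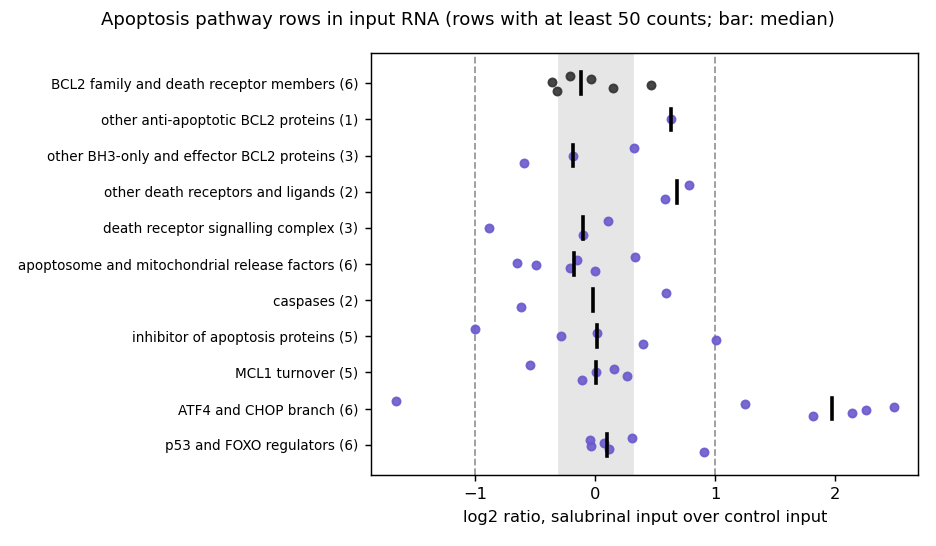
Log2 ratio of salubrinal input over control input (horizontal axis) for every measured row of the member list and of 10 other lists, with the number of measured rows in brackets, black bars for medians, dashed lines at 2-fold and the interquartile range of all measured rows in grey. The members' median is -0.12 and that of the ATF4 and CHOP branch is 1.98; Birc2 and Birc7 lie at 1.01 and -1.01.

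These ratios rest on the scaling. With total gene-row counts in place of trimmed means, the median of all measured rows moved by 0.93, Mcl1 stood at 1.40 and Bcl2l1 at 1.08, both past 2-fold, and Bax, Bbc3, Bcl2 and Bcl2l11 changed sign. The intervals of Mcl1 (1.16 to 1.66), Bcl2l1 (0.82 to 1.36), Bax (0.42 to 1.05) and Bbc3 (0.10 to 1.75) then left out 0. Those of Bcl2 (-0.04 to 1.27) and Bcl2l11 (-0.11 to 1.25) still included it. Against the median of all rows under that scaling, 0.95, 0 members were 2-fold apart, and Bax at 0.72, Bbc3 at 0.84, Bcl2 at 0.58 and Bcl2l11 at 0.54 stayed below it. The row CT010467.1 took 12.8% of gene-row counts with salubrinal and 56.7% in the control. Removed together with ribosomal RNA and mitochondrial rows before trimmed-mean scaling, it left Mcl1 at 0.46 and Bax at -0.21, the values obtained with it. Trimmed means set aside rows with extreme ratios, so this removal could hardly move the values and does not bear on scaling by total counts. Its part in the members' values under total counts was not tested.

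The gradient fractions could not show the members. Their files name human genes and held 864 to 23679 counts each outside ribosomal RNA (rRNA) rows, and the 4 files of a replicate were summed into 1 library because their counts outside rRNA rows differed by no more than sampling noise (chi-square per degree of freedom of 0.937 to 1.03 over the 6 libraries). Over the 24 files the 10 member rows held 18 counts in all, 5 with salubrinal and 13 in the control, out of 86990 and 202252 counts outside rRNA rows, and no file held more than 1 count on any of them. BID had 0, 0 and 2 counts in the salubrinal libraries, against 2, 1 and 1 in the control libraries. TNFRSF10B had 0, 0 and 2 counts in the salubrinal libraries, against 1, 0 and 1 in the control libraries. The groups overlap for both rows, and MCL1, with 0 counts in every salubrinal library, had 2 in control replicate 3 alone. BCL2L11, BAX and BAK1 were at 0 in all 24 files.

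None of the 10 member rows reached the filter on low counts, so 0 of 10 were tested, where 52 of 913 tested rows (5.70%) passed edgeR's quasi-likelihood test in the summed libraries at a Benjamini-Hochberg threshold of 0.05. The same held in each fraction, where 3.73% of tested rows passed in polysome, 12.7% in 80S, 9.83% in 60S and 8.00% in 40S. Without the filter edgeR and DESeq2 took in 7 member rows of the summed libraries and called 0, with 0 at an unadjusted p under 0.05 by either; of all 10224 rows edgeR then called 4, with 528 at that p, and DESeq2 called 24, with 87. With so few counts, and with the 4 fraction files of a replicate alike outside rRNA rows, these files do not show whether ribosomes held more or less of these mRNAs after salubrinal. TNFRSF10B overlaps RHOBTB2 and an antisense transcript listed as a pseudogene in the RefSeq table, and BCL2, BCL2L1, BBC3 and BID overlap RNA genes or a pseudogene, so reads on these rows cannot be assigned with certainty. Of 74 rows of the other lists, 2 were tested and 0 passed: HTRA2, a mitochondrial protease released during apoptosis, had 5, 0 and 85 counts in the salubrinal libraries, against 54, 8 and 66 in the control libraries (log2 fold change 0.80, edgeR adjusted p = 0.131). ENDOG had 3, 0 and 9 counts in the salubrinal libraries, against 22, 5 and 23 in the control libraries (log2 fold change -0.64, edgeR adjusted p = 0.579). Both rows overlap other genes, AUP1 and LOXL3 for HTRA2 and SPOUT1 for ENDOG.

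**Figure D4:**
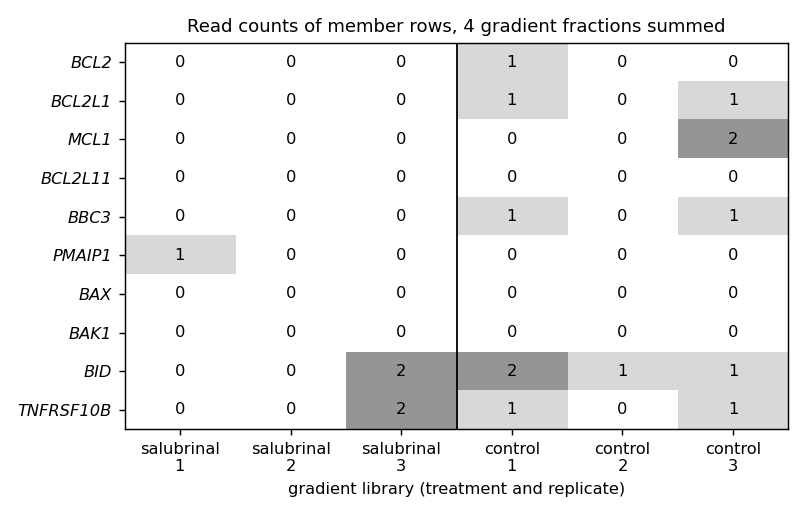
Read counts of the 10 member rows (down the page) in the 6 gradient libraries, each the sum of 4 fraction files, with the 3 salubrinal libraries left of the 3 control libraries and darker cells for higher counts. No cell exceeds 2 counts, and 3 rows are at 0 throughout.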

How the data were processed

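The deposited files hold raw read counts per gene, not normalized by the authors. The submitters' processing notes name HTSeq 0.5.3p3, STAR, DESeq, SAMtools 0.1.19.24 and FastQC 0.11.5, on build hg19; no source used here gives the strand setting. Libraries came from a stranded total RNA kit, per the labels' protocols. Rows that name no gene were left out, and gene rows held 7.06% of counts in the salubrinal input, 5.94% in the control input and 4.72 to 5.79% in gradient files.

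The members and lists were chosen with earlier results of these data known. Input ratios are log2 ratios of counts after TMM scaling, with 2 as the prior count; intervals are exact conditional binomial ones without the prior. Ratios of ratios are conditional odds ratios. Named were all members, the 2 highest and 2 lowest measured rows of each other list, and Atf4, Ddit3, Casp8, Fas, Tnfsf10, Usp9x, Bad, Bmf, Hrk, Bok and Bik for their roles; 1 row that the rule names is not reported here.

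Gradient files were summed per replicate and tested in R 4.3.3 by edgeR 4.0.16 (robust glmQLFit after filterByExpr and TMM), also per fraction. The control 40S files titled replicates 1 and 2 were placed with the other fractions of replicates 2 and 1: against 60S outside rRNA rows, chi-square per degree of freedom was 0.807 and 0.981 so placed and 1.90 and 2.09 as titled. The labels do not say whether replicates were separate cultures; the spread behind each p-value may be technical. The edgeR test and the exact interval were tested on simulated counts. Alternatives were other scalings, minimums and prior counts, DESeq2 1.42.0, no filter, removal of rRNA rows, a replicate block and leaving out each replicate.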

Additional observations from a re-analysis of the deposited data

How the results depend on the processing

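In the input, 0 members were 2-fold apart under RLE size factors, removal of rRNA and mitochondrial rows before scaling, a prior count of 0.5 and minimums of 20 and 200 counts; scaling by total counts gave 2. Rows of the other lists past 2-fold numbered 8, and 19 (all upward) under total counts, which ended the downward calls of Birc7 and Atf5, and 4 with a minimum of 200, where fewer rows were measured. In the gradient, 0 members were called under every alternative, with 7 rows at most tested; the filter and the counts limit this, so it says nothing about stability. Calls among all rows moved: from 52 in the summed libraries to 4 without the filter, 24 with DESeq2, 91 without rRNA rows and 89 with control 40S files as titled. Leaving out salubrinal replicate 2 or 3 gave 117 or 15, and control replicate 1 or 3 gave 8 each. In single fractions, leaving out 1 replicate gave 0 to 39 calls in polysome, 0 to 46 in 80S, 0 to 39 in 60S and 0 to 47 in 40S. Same-numbered replicates did not all deviate together (correlations -0.02, 0.17 and 0.31), so numbers were not taken as pairs; the replicate block called 0 members and 24 rows in the summed libraries, and 4, 15, 9 and 0 rows in polysome, 80S, 60S and 40S. The input has 1 library per treatment, so its ratios have no replicate check.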
